A study of Rattus norvegicus with 24 samples.

Results

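The paraventricular nucleus (PVN) of the hypothalamus was compared between rats that underwent partial hepatectomy with electroacupuncture (HT + EA) and normal control rats (NC), to ask which miRNAs still differed from the unoperated state after treatment. The members are the 3 HT + EA and 3 NC small RNA libraries of the PVN, chosen by nucleus and treatment in their labels, 6 of the 24 libraries of the series. All rats were male Sprague-Dawley animals bought at 7 weeks of age. NC rats had no operation and no needles and were held awake in the same restraint as the needled rats, for the same time. HT + EA rats were anesthetized with isoflurane, lost about 20% of the left liver lobe, and received 2/15 Hz current for 30 min per session through needles on one side at the Zusanli and Sanyinjiao acupoints, both on the day before and right after the operation. Nuclei were dissected 24 h after the last of these sessions. The groups therefore differ in anesthesia, surgery, needles and current together, and the share of each cannot be told apart in this comparison. The hepatectomy group without needles (HT) and the group with needles but no current (HT + SEA) have 3 PVN libraries each. They appear below as levels beside the compared groups, in the scaling of those levels and in an alternative fit on all 4 PVN groups. The labels name the tissue as brain. By the methods 12 rats were divided among the 4 groups, and since a single rat gave too little material the brain tissue was taken from several animals of the same batch, but which samples came from which rat, and whether a library pools rats, is not stated. The p-values thus measure the spread between these libraries, which may be in part technical.

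The PVN holds the neurosecretory neurons that release corticotropin-releasing hormone and so start the hypothalamus-pituitary-adrenal response to surgery. A miRNA is a short RNA, cut from one arm of a hairpin precursor (5p or 3p), that guides silencing complexes to messenger RNAs through its seed, bases 2 to 8, so miRNAs with one seed share most predicted targets. Several miRNAs mark a cell type: in brain tissue, miR-9 and miR-124 mark neurons, miR-7 neuroendocrine cells, miR-219 and miR-338 oligodendrocytes, miR-34b/c the multiciliated ependyma and choroid plexus, miR-126 endothelium, miR-223 myeloid cells, and miR-144 and miR-451 red cells.

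The 6 libraries held between 6584345 and 14828269 counted reads, and all 3 NC libraries (6584345 to 10668808) were shallower than all 3 HT + EA libraries (12134529 to 14828269). Depth and group thus cannot be told apart by design, and an alternative in which every library was thinned to the smallest total is given with the results. A count of 3, taken as the floor, equals 0.202 to 0.456 CPM (counts scaled by library size), and such floors cover counting error only. Levels are CPM on TMM-scaled library sizes, fitted over the 12 PVN libraries, and are given as mean ± SD over the 3 libraries of a group. Neuronal and neuroendocrine marker miRNAs were at high level in all 6 libraries. miR-7a-5p stood at 148892 ± 11174 CPM in NC and 147142 ± 8075 CPM in HT + EA, and miR-9a-5p at 102257 ± 4146 and 95257 ± 2211 CPM.

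The mature sequences of the miRNAs on which the comparison turns are given here as RefSeq lists them (GRCr8 build), 5′ to 3′, with the seed in capitals. The first set holds both miRNAs that passed the adjusted threshold, miR-144-3p at chr10:63459446-63459465 (+) and miR-33-5p at chr7:115593957-115593977 (+), within the span of Srebf2, and the pair miR-101a-3p and miR-101b-3p, whose seeds share their first 6 bases, ACAGUA, with that of miR-144-3p.
miR-144-3p: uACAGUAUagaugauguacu
miR-101b-3p: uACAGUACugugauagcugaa
miR-101a-3p: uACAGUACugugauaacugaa
miR-33-5p: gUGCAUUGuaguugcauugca

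The second set holds miRNAs whose place in the genome or seed bears on how their values are read. miR-34c-5p at chr8:60306133-60306155 (-) and miR-34b-5p at chr8:60306657-60306679 (-) carry one seed and lie side by side within the span of Hoatz. miR-219a-5p at chr3:33516561-33516581 (-) and miR-219a-2-3p at chr3:33516517-33516538 (-) are arms of one hairpin, and miR-219b at chr3:33516519-33516540 (+) is listed on the other strand of that hairpin. miR-29b-3p has 2 loci, one of them at chr4:60618342-60618364 (-), and miR-3587 at chr4:60618342-60618362 (+) is its reverse complement.
miR-34c-5p: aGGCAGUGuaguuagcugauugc
miR-34b-5p: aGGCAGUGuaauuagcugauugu
miR-219a-5p: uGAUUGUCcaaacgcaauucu
miR-219a-2-3p: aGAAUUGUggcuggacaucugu
miR-219b: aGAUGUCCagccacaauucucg
miR-29b-3p: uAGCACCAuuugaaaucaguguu
miR-3587: aACACUGAuuucaaauggugc
miR-29a-3p: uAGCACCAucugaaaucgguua

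The last set holds the miRNAs with the lowest fold changes, miR-223-3p and miR-206-3p, with miR-1b as seed mate of miR-206-3p, and 3 miRNAs with the seed AUUGCAC that differed in direction.
miR-223-3p: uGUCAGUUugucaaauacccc
miR-206-3p: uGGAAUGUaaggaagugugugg
miR-1b: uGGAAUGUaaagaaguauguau
miR-92a-3p: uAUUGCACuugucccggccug
miR-32-5p: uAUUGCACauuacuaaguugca
miR-363-3p: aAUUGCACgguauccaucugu

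Reads of such opposite-strand entries were not told apart in the count table. Among known miRNAs, 25 pairs had counts within 2% of each other in every library, and of 23 pairs with both sequences listed, 22 shared a run of at least 15 bases in reverse complement and 1 on the same strand. miR-29b-3p and miR-3587, miR-133a-3p and miR-133c, let-7d-5p and miR-3596b, miR-434-3p and miR-3543, and miR-380-5p and miR-3579 are therefore single measurements under 2 names.

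Of 1098 miRNAs in the table, 525 passed the filter on low counts and were tested, 513 of them known and 12 predicted. With edgeR's quasi-likelihood test and an adjusted p (Benjamini-Hochberg) under 0.05, 2 miRNAs (0.381% of those tested) fell after HT + EA and none rose. The study's own methods set a threshold of 0.05 on the unadjusted p, and 86 miRNAs (16.4%) passed it, where about 5% of unchanged miRNAs would pass. The p-values beside single miRNAs below are adjusted over all 525, and a nominal call is one that passed before adjustment, the 2 that also passed after it included. Of these, 40 (7.62% of all tested) were nominally higher in HT + EA and 46 (8.76%) nominally lower. The nominal changes were small, with a median log2 fold change of 0.35 among the higher and -0.50 among the lower, and only 4 reached a size of 1 on the log2 scale. Over all 525 miRNAs the median size of the log2 fold change was 0.14, and for 445 of them the 95% interval lay within 1 on either side of 0. The split of nominal calls moved with the scaling. The share of calls on the higher side was 46.5% under TMM, 58.9% with library totals only, 41.7% with DESeq2's size factors and 28.8% with upper quartile scaling. Every one of the 86 kept its sign under each of these scalings, a weak check since the 86 were picked on the same counts. Here "rose" and "fell" are kept for an adjusted p under 0.05.

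**Figure D1:**
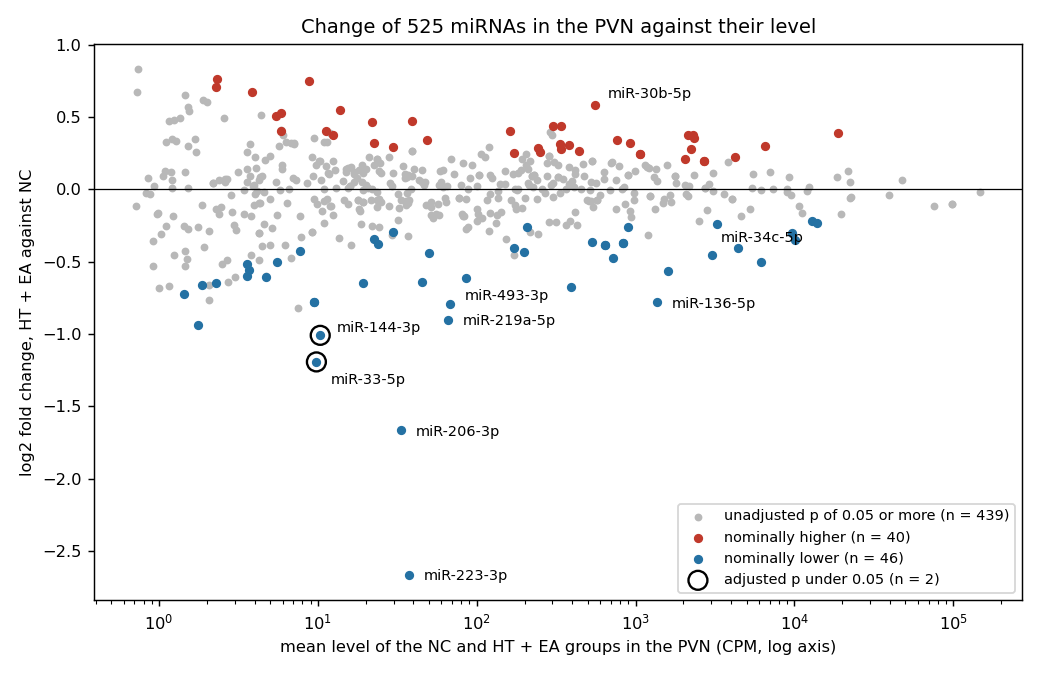
Log2 fold change of HT + EA against NC (vertical axis) against the mean level of both groups in CPM (horizontal log axis) for the 525 miRNAs tested in the PVN; red and blue points are the 40 nominally higher and 46 nominally lower miRNAs, and open circles mark the 2 with an adjusted p under 0.05. The largest nominal changes point downward, with miR-223-3p at -2.66 and miR-206-3p at -1.67, while no nominally higher miRNA exceeds 0.77.

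The 3 HT + EA libraries lay wholly above the 3 NC libraries for 61 of the 525 miRNAs (11.6%) and wholly below for 49 (9.33%). Among the 86 nominal calls the groups did not overlap for 66 (35 higher, 31 lower) and overlapped for 20. The unadjusted threshold fell between miR-155-5p, the last inside (adjusted p = 0.291), and miR-204-3p, the first outside (adjusted p = 0.309). The number of calls rested on the fit and on single libraries. The adjusted count was 22 with DESeq2 (5 higher, 17 lower) and 41 with every miRNA of at least 1 count in the fit, and with all libraries thinned to one depth it was 2, with 75 unadjusted calls. The adjusted count was 0 without any one of the HT + EA libraries, and 5, 12 and 4 without NC library 1, 2 or 3, and the unadjusted count fell to 48 without HT + EA library 1 and 53 without library 2.

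miR-144-3p, processed from a hairpin next to that of miR-451 and abundant in red cells, fell. It stood at 12.8, 13.3 and 15.4 CPM in the NC libraries and 6.37, 6.41 and 7.79 CPM in the HT + EA libraries. Every HT + EA library was below every NC library, and also below all 6 HT and HT + SEA libraries, which spanned 12.1 to 16.1 and 11.1 to 14.3 CPM. The log2 fold change was -1.01 (SE 0.16, 95% interval -1.37 to -0.65, adjusted p = 0.0378 in edgeR). The other arm of the hairpin, miR-144-5p, gave 0.17 (SE 0.25), and -0.05 without HT + EA library 2 to 0.40 without NC library 2, with 9.14 ± 2.56 CPM in NC and 10.4 ± 2.89 CPM in HT + EA.

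miR-33-5p lies within Srebf2, the gene of a transcription factor that controls cholesterol synthesis, and is known to repress the cholesterol exporter Abca1. It stood at 11.9, 14.7 and 14.3 CPM in NC and 6.81, 4.14 and 6.91 CPM in HT + EA. The groups were far apart, and the HT (9.3 to 10.1 CPM) and HT + SEA libraries (8.57 to 11 CPM) lay between them without overlap with either. Its log2 fold change was -1.19 (SE 0.21, 95% interval -1.65 to -0.73, adjusted p = 0.0412 in edgeR). The other arm, miR-33-3p, gave 0.17 (SE 0.19). For both miR-144-3p and miR-33-5p the call was lost when any HT + EA library was left out (adjusted p from 0.0735 to 0.154), kept in every other alternative, and held with all libraries thinned to one depth (adjusted p of 0.016 and 0.0174). Over all alternatives the adjusted p ranged from 5.02e-05 to 0.119 for miR-144-3p and from 1.46e-06 to 0.154 for miR-33-5p.

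**Figure D2:**
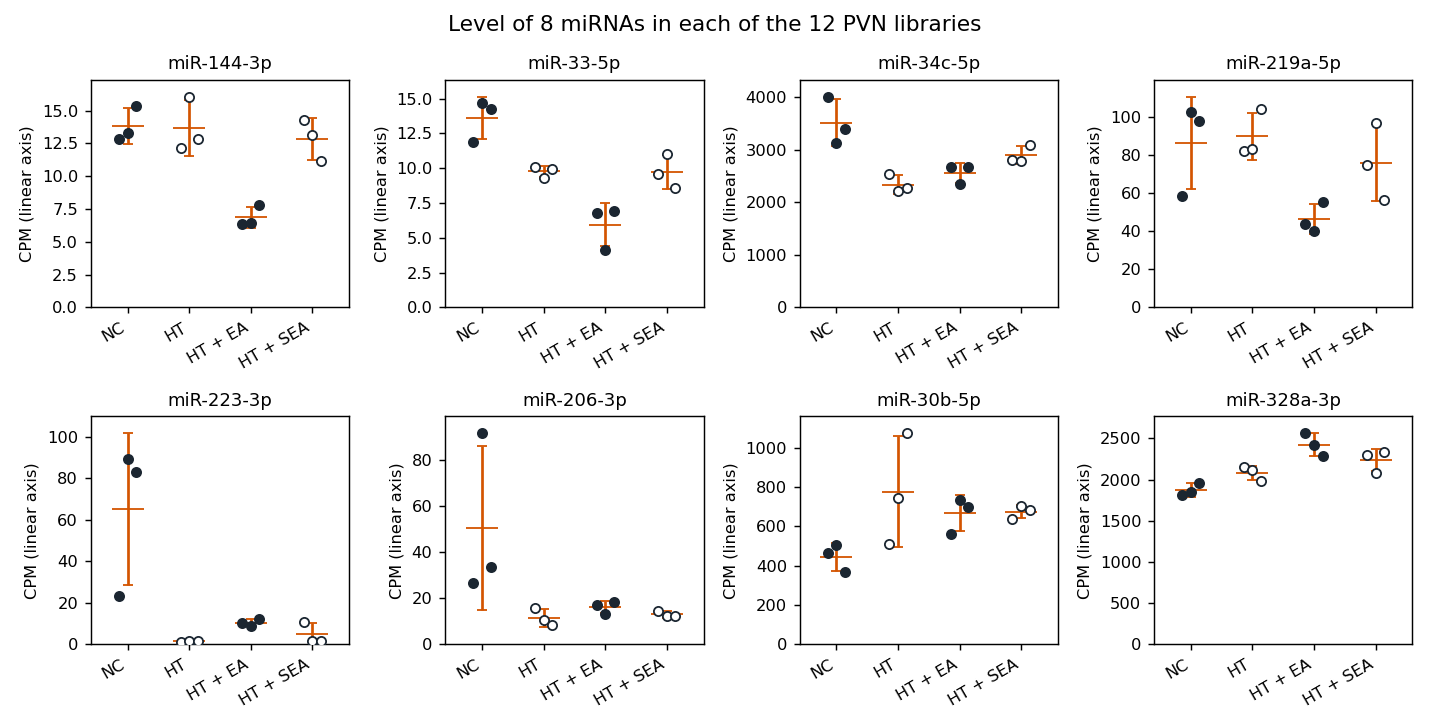
Level in CPM (linear vertical axis from 0) of 8 miRNAs in each PVN library of the NC, HT, HT + EA and HT + SEA groups; points are libraries (filled for the compared groups), bars the mean and SD over 3 libraries. miR-144-3p, miR-33-5p and miR-219a-5p are lowest in the HT + EA libraries, whereas miR-223-3p and miR-206-3p are low in all 3 operated groups and vary most among the NC libraries.

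The miR-101 pair, which shares 6 of 7 seed bases with miR-144-3p, was nominally lower as well. miR-101b-3p stood at 5339, 4638 and 5182 CPM in NC and 3844, 3408 and 4201 CPM in HT + EA, with no overlap and a log2 fold change of -0.40 (SE 0.098, adjusted p = 0.117). Its seed mate miR-101a-3p, from a separate locus, gave -0.30 (SE 0.095, adjusted p = 0.18), again without overlap.

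Of the 4 miR-34b/c miRNAs of the multiciliated ependyma, 3 were nominally lower. miR-34c-5p, the most abundant of them, stood at 4014, 3139 and 3394 CPM in NC and 2669.8, 2344 and 2678 CPM in HT + EA, and the groups did not overlap. Its log2 fold change was -0.45 (SE 0.10, adjusted p = 0.117). The HT libraries (2208 to 2537 CPM) overlapped the HT + EA libraries and were all below the NC libraries. miR-34b-5p, from the same locus, gave -0.65 (SE 0.17, adjusted p = 0.144), and the other arm of miR-34c, miR-34c-3p, -0.64 (SE 0.20, adjusted p = 0.175), with overlapping groups. Without NC library 3 miR-34c-3p lost its nominal call. The fourth, miR-34b-3p, was not called at -0.27 (SE 0.16, adjusted p = 0.452), with overlapping groups. The unlinked seed mate miR-34a-5p, induced by p53 in many tissues, gave 0.09 (SE 0.13), with -0.02 without NC library 1 and 0.20 without NC library 3, and miR-449a-5p gave 0.30 (SE 0.32). In the ependymal and choroid plexus list, 3 of 7 tested members were nominally lower (8.76% over all miRNAs tested) and none higher, with a median log2 fold change of -0.27 (0.006 over all miRNAs tested), and -0.07 without NC library 1. The summed level of the list was 3902 to 4800 CPM in NC and 3126 to 3504 CPM in HT + EA, without overlap. Both miR-204 arms, made by choroid plexus, pointed the other way, at 0.32 (SE 0.15) for miR-204-3p and 0.12 (SE 0.093) for miR-204-5p. miR-204-3p passed the unadjusted threshold in 2 of 6 fits without a library and in 4 of 14 other alternatives. In bulk tissue, fewer cells of a type and less of a miRNA per cell cannot be told apart.

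In the oligodendrocyte list of 6 tested miRNAs, 1 was nominally lower (8.76% over all miRNAs tested) and 2 nominally higher (7.62%), with a median log2 fold change of 0.34. miR-219a-5p, which drives oligodendrocyte maturation, stood at 58.4, 103 and 97.8 CPM in NC and 43.9, 39.9 and 55 CPM in HT + EA. The groups did not overlap, the HT libraries (82.2 to 104 CPM) and HT + SEA libraries (56.1 to 96.6 CPM) were all above the HT + EA libraries, and the log2 fold change was -0.90 (SE 0.22, adjusted p = 0.117). The opposite arm went the other way. miR-219a-2-3p, far more abundant at 2039 ± 364 CPM in NC and 2614 ± 327 CPM in HT + EA, gave 0.36 (SE 0.14, adjusted p = 0.255), and miR-219b, listed on the opposite strand of the same bases, 0.37 (SE 0.14, adjusted p = 0.248). These 2 entries overlap in sequence and are not separate measurements, their groups overlapped, and either lost its nominal call without HT + EA library 2 or 3 or NC library 1 or 3. Without NC library 1 they stood at 0.22 and 0.24. miR-338-3p, another oligodendrocyte miRNA, gave 0.10 (SE 0.21).

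miR-223-3p, the main miRNA of neutrophils and other myeloid cells, had the lowest fold change of all. It stood at 23, 89.5 and 82.9 CPM in NC and 10.1, 8.84 and 12 CPM in HT + EA. The groups did not overlap, and NC library 1 was well below the other NC libraries. The HT libraries were lower still, at 1.02 to 1.48 CPM, as were 2 HT + SEA libraries, while the remaining one stood at 10.9 CPM. The log2 fold change of HT + EA against NC was -2.66 (SE 0.56, adjusted p = 0.144). Over all alternatives the adjusted p ranged from 3.82e-22 (every miRNA of at least 1 count and no robust spread estimate, chosen after seeing the data) to 0.465, and it was also under 0.05 with DESeq2 (0.000953), without the robust spread estimate (0.0295) and without NC library 1 (8.54e-08). Of 11 tested members of the myeloid and inflammation list, 1 was nominally higher and miR-223-3p alone nominally lower (7.62% and 8.76% over all miRNAs tested), with a median of 0.06, and the summed level was 5848 to 7951 CPM in NC and 7177 to 7700 CPM in HT + EA. miR-142-3p and miR-142-5p, defining markers of blood-derived cells, gave -0.32 (SE 0.19) and 0.06 (SE 0.13). miR-155-5p, induced in activated macrophages and microglia, gave 0.41 (SE 0.18, adjusted p = 0.291), and kept its nominal call in 1 of 6 fits that left out a library and in 6 of 14 other alternatives. miR-146b-5p, an inflammation-responsive miRNA, gave 0.15 (SE 0.088).

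Among red cell miRNAs, 2 of 4 tested were lower (8.76% over all miRNAs tested), miR-144-3p as above and miR-451-5p nominally. miR-451-5p stood at 169, 218 and 202 CPM in NC and 136, 191 and 117 CPM in HT + EA, with overlapping groups and a log2 fold change of -0.41 (SE 0.18, adjusted p = 0.287). It lost the call in 4 of 6 fits without a library, those without HT + EA library 1 or 3 or NC library 2 or 3, and its value was -0.64 without HT + EA library 2 and -0.27 without library 3. miR-486, the third miRNA of red cells, gave 0.02 (SE 0.13). The summed level of the red cell list was 278 to 342 CPM in NC and 229 to 318 CPM in HT + EA. The part of blood content in the change of miR-144-3p was not tested.

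Of the striated muscle list, 3 of 5 tested members were nominally lower (8.76% over all miRNAs tested) and none higher, with a median of -0.78, but 2 of the 3 are the single measurement miR-133a-3p and miR-133c. Counted once, the median was -0.54. miR-206-3p, a skeletal muscle miRNA, stood at 26.5, 91.6 and 33.5 CPM in NC and 17, 13.1 and 18.2 CPM in HT + EA. All 9 libraries of operated rats lay below the 3 NC libraries, and NC library 2 was far above the others. The log2 fold change was -1.67 (SE 0.53, adjusted p = 0.248), and -0.90 without NC library 2, where the adjusted p fell to 0.0306. Over all alternatives the adjusted p ranged from 4.14e-11, under the setting chosen after seeing the data, to 0.611. Among the fits without a library the nominal call was lost without HT + EA library 1 or 2, and it was lost with every miRNA of at least 1 count in the fit. miR-133a-3p gave -0.78 (SE 0.21, adjusted p = 0.144), from 14.2, 13.8 and 8.04 to 6.81, 6.73 and 7.52 CPM. The listed seed mate of miR-206-3p, miR-1-3p, was not called at -0.30. miR-1b, which carries the same seed but is not in the list, gave -0.67 (SE 0.23, adjusted p = 0.213), with overlapping groups. miR-499-5p, a myosin-hosted miRNA in the list, gave -0.05 (SE 0.097). The summed level of the list was 358 to 443 CPM in NC and 322 to 344 CPM in HT + EA. The part of tissue beside the nucleus in these values was not tested.

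Among vessel miRNAs, 1 of 7 tested was nominally higher and none lower (7.62% and 8.76% over all miRNAs tested), with a median of -0.12. The summed level of the list ran the other way, at 30855 to 33632 CPM in NC and 28407 to 30717 CPM in HT + EA, without overlap. miR-145-5p, the smooth muscle miRNA, stood at 224, 309 and 240.3 CPM in NC and 311, 364 and 371 CPM in HT + EA, with no overlap and a log2 fold change of 0.44 (SE 0.14, adjusted p = 0.181). Its cluster mate miR-143-3p gave -0.12 (SE 0.09), and miR-126a-3p, the endothelial miRNA, -0.17 (SE 0.084). None of the 4 liver miRNAs tested passed, and miR-122-5p, which makes up most of the miRNA of hepatocytes, stood at 1.72, 1.13 and 0.97 CPM in NC and 2.42, 1.7 and 1.36 CPM in HT + EA. These are 7 to 33 counts per library. None of the 8 tested miRNAs of the epithelial and sensory clusters and neither of the 2 Hox-cluster miRNAs passed, and among the latter miR-10b-5p varied widely within the NC group (44.1 to 354 CPM).

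**Figure D3:**
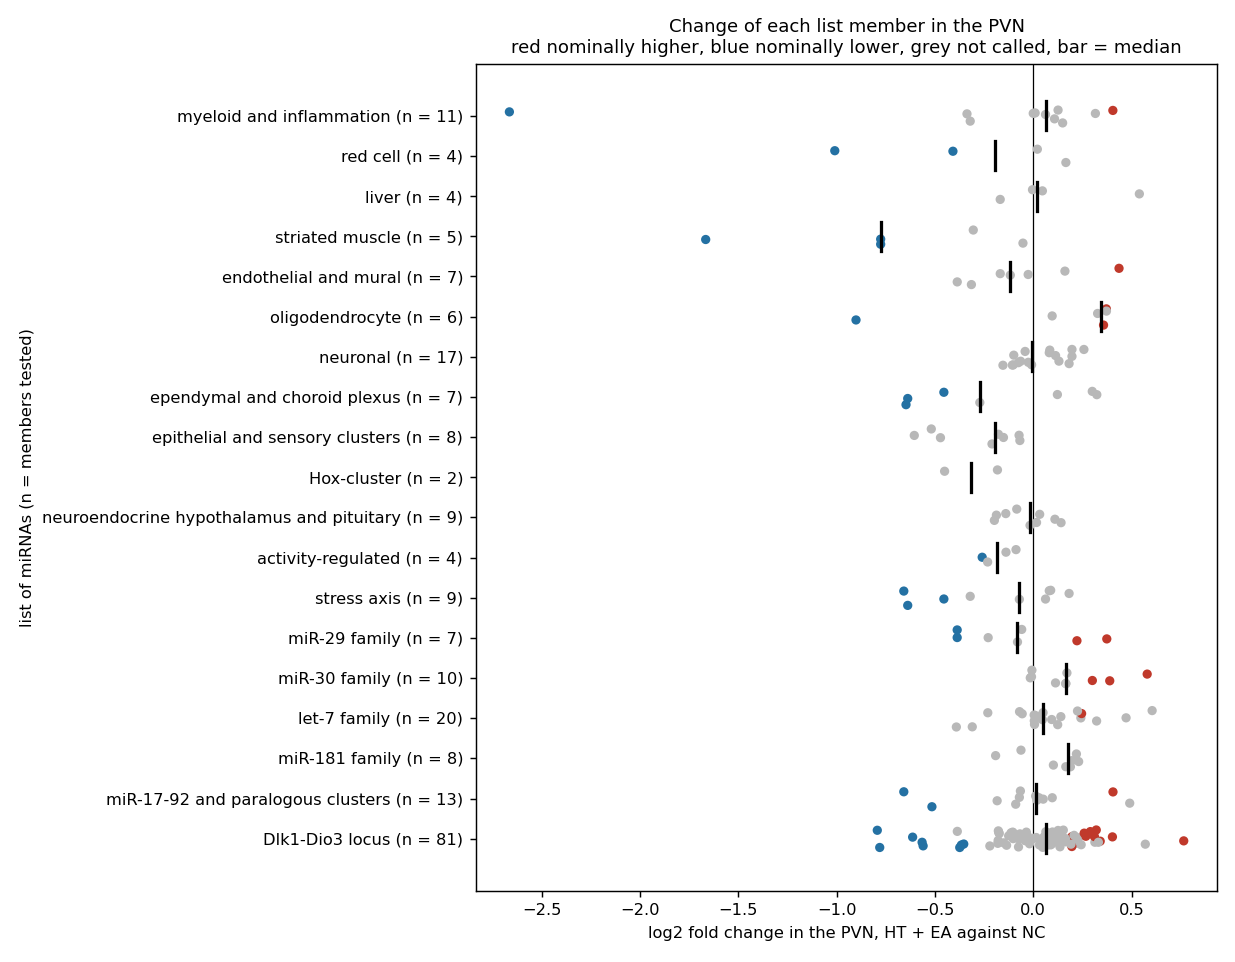
Log2 fold change of HT + EA against NC (horizontal axis) for each tested member of 19 lists of miRNAs (rows), with red for nominally higher, blue for nominally lower, grey for not called and a black bar at the list median. The neuronal and neuroendocrine lists hold no called member, and the calls of the muscle, ependymal and stress axis lists all point down, those of the miR-30 list all up.

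No neuronal or neuroendocrine miRNA was called. Of 17 tested neuronal members none passed, and their log2 fold changes lay between -0.15 and 0.26 with a median of -0.01. The summed level of the neuronal list was nonetheless lower without overlap, at 221359 to 235339 CPM in NC and 208597 to 218475 CPM in HT + EA. Most of that sum is miR-9a-5p, at -0.10 (SE 0.071) and without overlap, which the list holds a second time as its reverse complement miR-9b-3p. Counted once, the groups lay next to each other without overlap, at 121283 to 129184 CPM in NC and 115786 to 121243 CPM in HT + EA. None of 9 neuroendocrine members passed, and miR-7a-5p, the most abundant miRNA of the nucleus, gave -0.02 (SE 0.079). miR-375-3p, a miRNA of endocrine cells and the pituitary, gave -0.20 (SE 0.16), and -0.01 without NC library 1. The activity-regulated cluster, transcribed by CREB in stimulated neurons, had 1 of 4 members nominally lower (8.76% over all miRNAs tested) and a median of -0.19, or -0.34 without NC library 2. miR-132-3p gave -0.26 (SE 0.12, adjusted p = 0.287), with overlapping groups, and lost the nominal call in 5 of 6 fits without a library, with -0.13 without NC library 3. miR-212-3p gave -0.23 (SE 0.14), with -0.12 without NC library 1 and -0.36 without NC library 2.

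The list of miRNAs known to target the glucocorticoid receptor or the receptor of corticotropin-releasing hormone held 9 tested members. Of these, 3 were nominally lower (8.76% over all miRNAs tested) and none higher, with a median of -0.07. A GC correction chosen after seeing the data, fitted only to miRNAs with a listed sequence, gave -0.29. The lower ones were both arms of miR-34c, given above, and miR-18a-5p, which represses the glucocorticoid receptor. miR-18a-5p was scarce, at 2.04, 2.55 and 2.22 CPM in NC and 1.54, 1.46 and 1.36 CPM in HT + EA, and gave -0.66 (SE 0.26, adjusted p = 0.255). The call held in 1 of 6 fits without a library and in 8 of 14 other alternatives, DESeq2 not among them. miR-124-3p, which also targets the glucocorticoid receptor, gave 0.08 (SE 0.13).

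Among the higher miRNAs, the miR-30 family had 3 of 10 tested members nominally higher (7.62% over all miRNAs tested), none lower, and a median of 0.17. miR-30b-5p stood at 461, 507 and 368 CPM in NC and 562, 736 and 698 CPM in HT + EA, without overlap, and gave 0.58 (SE 0.14, adjusted p = 0.117). miR-30d-5p, which lies in one cluster with miR-30b, gave 0.39 (SE 0.13, adjusted p = 0.193), and miR-30c-5p 0.30 (SE 0.09, adjusted p = 0.161). The call of miR-30d-5p was lost without HT + EA library 3. Other members with the same seed were level. miR-30a-5p gave -0.01 (SE 0.082) and miR-30e-5p -0.01 (SE 0.098). The HT and HT + SEA libraries of miR-30b-5p spanned 511 to 1074 and 638 to 702 CPM, all above the highest NC library.

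The smallest p among nominally higher miRNAs belonged to miR-328a-3p, a brain-expressed miRNA that the study placed upstream of the synaptic gene Nsmf. It stood at 1811, 1844 and 1963 CPM in NC and 2563, 2422 and 2285 CPM in HT + EA. The groups did not overlap, the HT (1988 to 2151 CPM) and HT + SEA libraries (2078 to 2333 CPM) were above NC too, and the log2 fold change was 0.37 (SE 0.083, adjusted p = 0.117). Of the 33 tested miRNAs of the study's network, 7 were nominally higher (7.62% over all miRNAs tested) and 3 lower (8.76%), with a median of 0.12. That list was chosen by the study on samples that include these libraries, so its count is not independent evidence of direction. Apart from miR-204-3p and miR-34a-5p, given above, the values of 9 further study miRNAs that did not pass follow. The paper's text names all of these but miR-326-3p, which is in the study's network only. miR-1224 gave -0.34 (SE 0.16), and passed the unadjusted threshold in 1 of 6 fits that left out a library and under 7 of the 14 other alternatives. miR-92b-3p gave 0.18 (SE 0.13) and miR-3548 -0.64 (SE 0.39), and each passed in 1 of 6 fits without a library, miR-3548 also in 2 of 14 other alternatives. Over the 6 fits without a library, the log2 fold change ran from -0.49 to -0.23 for miR-1224, 0.08 to 0.35 for miR-92b-3p and -1.14 to -0.21 for miR-3548. The other 6 passed in no alternative. Their values with the range over those 6 fits were -0.18 (SE 0.13) for miR-667-5p (-0.28 to -0.08), -0.16 (SE 0.13) for miR-326-3p (-0.27 to -0.05) and 0.12 (SE 0.33) for miR-3084a-3p (-0.06 to 0.49). Near 0 were miR-3099 at -0.03 (SE 0.13) (-0.13 to 0.07), miR-331-3p at 0.05 (SE 0.12) (-0.02 to 0.10) and miR-138-5p at -0.03 (SE 0.10) (-0.07 to 0.04). The predicted novel_583 had 0 counts in all NC libraries and at most 1 in an HT + EA library, under the floor of 3, and was not tested.

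Further miRNAs among the 25 with the smallest p differed by little on the log2 scale. Nominally higher were miR-365-3p (0.55 (SE 0.15)), miR-455-3p (0.46 (SE 0.14)) and miR-222-3p (0.44 (SE 0.13)), whose cluster and seed mate miR-221-3p gave 0.28 (SE 0.11). miR-222-3p stood at 314, 315 and 238 CPM in NC and 428, 373 and 373 CPM in HT + EA, with no overlap. Nominally lower was miR-153-3p, a synaptic miRNA hosted by Ptprn2, at 844, 888 and 800.1 CPM in NC and 656, 477 and 686 CPM in HT + EA, with a log2 fold change of -0.48 (SE 0.13, adjusted p = 0.144).

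Of the 6 seeds with at least 2 called miRNAs of listed sequence, 4 had all calls in one direction (miR-101a/b, miR-34b/c and miR-206 with miR-1b lower, miR-221/222 higher) and 2 had calls in both. Of the 3 tested miRNAs with the seed AGCACCA, miR-29b-3p was nominally lower at -0.39 (SE 0.095, adjusted p = 0.117) and miR-29a-3p nominally higher at 0.22 (SE 0.087, adjusted p = 0.255), although both repress collagen and DNA methyltransferase messages. miR-29b-3p stood at 689, 743 and 759 CPM in NC and 558, 519 and 599 CPM in HT + EA, without overlap. The call of miR-29a-3p was lost without HT + EA library 1 or 2 or NC library 1. With the seed AUUGCAC, miR-92a-3p of the miR-17-92 cluster was nominally higher at 0.41 (SE 0.12, adjusted p = 0.153), while miR-32-5p at -0.44 (SE 0.15) and miR-363-3p at -0.52 (SE 0.21) were nominally lower. miR-363-3p kept the call in 1 of 6 fits without a library and in 9 of 14 other alternatives. Of 13 tested miRNAs of the miR-17-92 and paralogous clusters, 1 was nominally higher and 2 lower (7.62% and 8.76% over all miRNAs tested), with a median of 0.01.

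Several abundant miRNAs outside these families were called too, and are named here after their values were seen. miR-218a-5p, hosted by the axon guidance genes Slit2 and Slit3, stood at 16046, 13992 and 15108 CPM in NC and 12485, 12738 and 13116 CPM in HT + EA, without overlap, and gave -0.23 (SE 0.078, adjusted p = 0.193). miR-330-5p gave -0.50 (SE 0.17, adjusted p = 0.199) and miR-598-3p -0.24 (SE 0.096, adjusted p = 0.255), both with overlapping groups. miR-125a-5p and miR-191a-5p were nominally higher without overlap, at 0.28 (SE 0.097, adjusted p = 0.199) and 0.21 (SE 0.078, adjusted p = 0.225). Of the 12 predicted miRNAs tested, 2 were called, novel_212 at 0.71 (SE 0.25, adjusted p = 0.21) and novel_157 at -0.34 (SE 0.14, adjusted p = 0.255).

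In the let-7 family 1 of 20 tested members was nominally higher (7.62% over all miRNAs tested), let-7d-5p at 0.25 (SE 0.10, adjusted p = 0.255), and its call was lost without HT + EA library 1 or 2 or NC library 3. None of 8 miR-181 members passed, and their median was 0.18. The highest value, 0.23 for miR-181a-1-3p, was 0.10 without NC library 1 and 0.38 without NC library 2.

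The imprinted Dlk1-Dio3 locus, whose miRNA clusters on chromosome 6 are transcribed from the maternal allele and are abundant in brain, gave calls in both directions. Of 81 tested members, 11 were nominally higher (7.62% over all miRNAs tested) and 8 lower (8.76%), with a median of 0.06. Among the 11 are miR-434-3p and miR-3543, which are a single measurement. miR-493-3p stood at 74, 71.2 and 113 CPM in NC and 45.5, 59.7 and 43.6 CPM in HT + EA, with no overlap and a log2 fold change of -0.79 (SE 0.20, adjusted p = 0.117). Its other arm miR-493-5p gave -0.61 (SE 0.19, adjusted p = 0.167), with overlapping groups. miR-136-5p stood at 1399, 1527 and 2271 CPM in NC and 1025, 813 and 1187 CPM in HT + EA and gave -0.78 (SE 0.21, adjusted p = 0.161). miR-134-5p, which limits dendritic spine size, gave -0.57 (SE 0.17, adjusted p = 0.167), and -0.36 without NC library 3. On the higher side were miR-433-3p at 0.34 (SE 0.093, adjusted p = 0.144) and miR-323-3p at 0.32 (SE 0.096, adjusted p = 0.161), neither with overlap, and the scarce miR-487b-5p at 0.77 (SE 0.25, adjusted p = 0.193), named after its value was seen. miR-433-3p stood at 674, 697 and 658 CPM in NC and 890.5, 907 and 772 CPM in HT + EA.

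Both arms were tested for 162 hairpins. One arm was called for 34 of them and both arms for 8, and of these 8 the arms went the same way in 4 and apart in 4. The same-way hairpins were those of miR-34c, miR-493 and miR-216a, all lower, and miR-487b, higher. The others were miR-219a-2, miR-29b-2, miR-222 and miR-1306, named like miR-216a and miR-487b after their values were seen. miR-29b-3p has 2 loci, so its reads need not come from the miR-29b-2 hairpin alone, and the same may hold for miR-219a-5p. In miR-222 the 3p arm was at 0.44 (SE 0.13) and the scarce 5p arm, at 1.81 ± 0.179 CPM in NC, at -0.72 (SE 0.30). In miR-1306 the 5p arm was at 0.67 (SE 0.22) and the 3p arm at -0.65 (SE 0.29), both under 6 CPM. Over all 162 hairpins the arms differed in sign in 83.

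**Figure D4:**
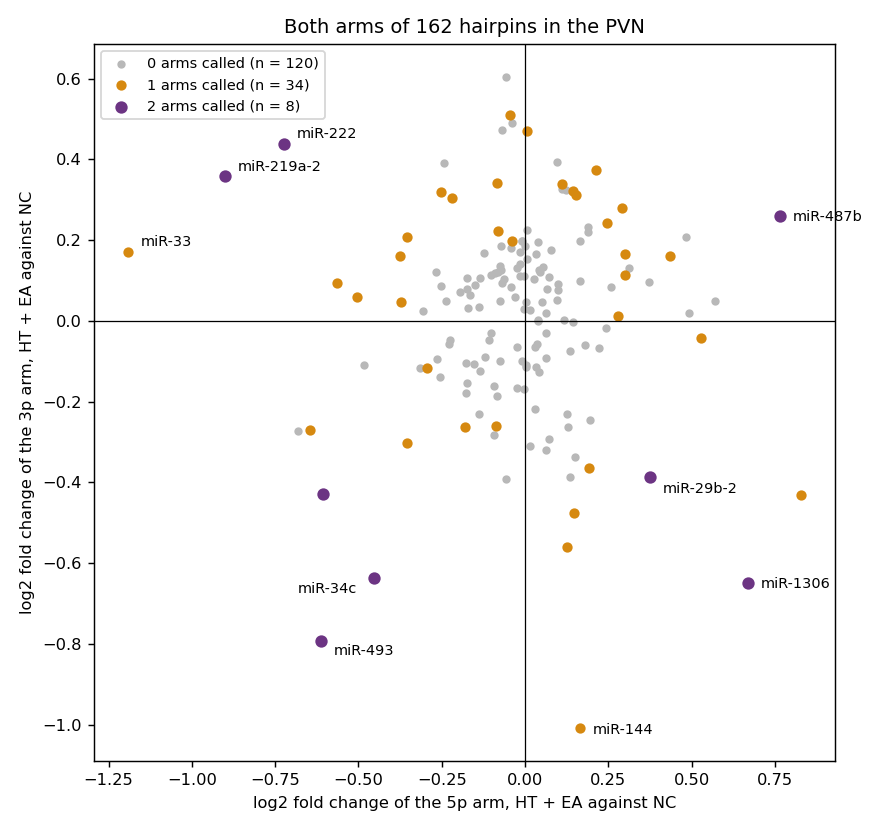
Log2 fold change of HT + EA against NC for the 5p arm (horizontal axis) and the 3p arm (vertical axis) of 162 hairpins; colors give how many arms were called at an unadjusted p under 0.05. miR-144 and miR-33 lie far out on one axis and near 0 on the other, and 4 of the 8 hairpins with both arms called lie in the quadrants of opposite sign.

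In GC content and length the called miRNAs lay near all those tested. Mature sequences were listed for 471 of the 525 tested miRNAs and 78 of the 86 called ones, and the median GC content was 47.8% over all, 47.8% among the 35 nominally higher and 45.5% among the 43 nominally lower, with a median length of 22 bases in each. Across 471 miRNAs, Spearman's rho of the log2 fold change with GC content was 0.032, given as a description since miRNAs of one library are not independent.

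The same contrast was made in the central nucleus of the amygdala (CEA), from 3 HT + EA and 3 NC libraries that are not in the comparison. It gave 26 unadjusted calls of 544 miRNAs and 0 adjusted ones. That unadjusted count lies near the 5% of unchanged miRNAs that would pass. Of the 86 miRNAs called in the PVN, 68 (79.1%) had the same sign in the CEA, against 300 of all 512 miRNAs tested in both (58.6%). The methods place all brain tissue in a single batch of several rats, but whether a PVN and a CEA library share a rat is not stated, so these are a description. Both nuclei gave an unadjusted p under 0.05 for 14 of the 512 miRNAs tested in both, all in the same direction. They included miR-144-3p, at -1.64 (SE 0.36) in the CEA, miR-33-5p, at -0.81 (SE 0.27), and miR-219a-5p, at -1.14 (SE 0.22). The test of the difference between the nuclei, an interaction over 12 libraries, passed for 0 of 563 miRNAs (0% adjusted, smallest adjusted p in edgeR of 0.839) and for 21 at an unadjusted p (3.73%), and DESeq2 also gave 0 adjusted. Without CEA NC library 1, 7 passed. Of the 86, 10 had an unadjusted interaction p under 0.05. Among these, miR-34c-3p differed by -0.97 (SE 0.40), with 0.37 (SE 0.32) in the CEA, and miR-145-5p by 0.48 (SE 0.21). miR-223-3p, at 0.00 (SE 0.99) in the CEA, differed by -2.63 (SE 1.20), which missed even the unadjusted threshold. For miR-144-3p and miR-33-5p the differences were 0.66 (SE 0.41) and -0.35 (SE 0.36). No miRNA can thus be called particular to the PVN from these libraries.

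**Figure D5:**
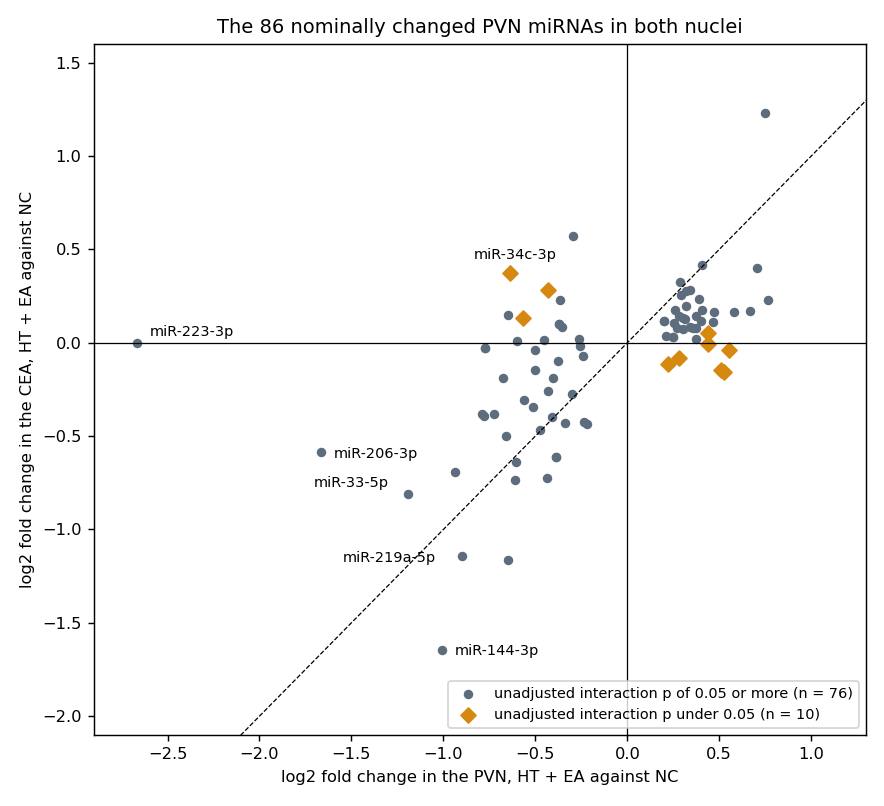
Log2 fold change of HT + EA against NC in the PVN (horizontal axis) and the CEA (vertical axis) for the 86 miRNAs called in the PVN at an unadjusted p under 0.05; diamonds mark the 10 with an unadjusted interaction p under 0.05, and the dashed line is equality. 68 of the 86 lie in the quadrants of equal sign, with miR-144-3p, miR-33-5p and miR-219a-5p low in both nuclei and miR-223-3p low on the PVN axis alone.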

How the data were processed

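The values deposited by the authors were raw counts for 1098 miRNAs (395 predicted) in 24 PVN and CEA libraries built with a NEBNext kit, after removal of poor or adapter-bearing reads. For all RNA types together, the paper names mRatBN7.2, HISAT2 and featureCounts. The submitters' processing notes list the same tools with a human build, and how miRNA reads were assigned is not given in the sources used here. A further 24 value columns whose names match no sample were not used.

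Counts of the 6 libraries were fitted with edgeR 4.0.16 (limma 3.58.1, R 4.3.3): filterByExpr, TMM, glmQLFit with robust=TRUE and glmQLFTest, and the SE was derived from the F statistic. The filter left out 573 miRNAs, with at most 77 counts in a library. The interaction with nucleus was fitted over 12 libraries. The test was tried on simulated counts, with 520 miRNAs tested, of which 97 were changed 1.5-fold and 99 2-fold. It recovered 63.9% and 91.9% of these, with 3 false adjusted calls. Each simulated miRNA had the spread of the trend over all miRNAs, without the wider spread of single ones such as miR-223-3p. Many true changes also ease the adjustment, so these rates may overstate what the real comparison could find. Tables and figures used Python 3.11.15, pandas 2.3.3 and matplotlib 3.10.9.

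Named are the 25 miRNAs with the smallest p, up to 3 per list with the smallest p, those in the paper's text and miR-326-3p of its network. Other arms, seed mates, further list members and miRNAs at the thresholds were named after their values were seen. Members and lists were chosen with earlier results of these data known. Replicate numbers are shared by the groups, but no source says what same-numbered libraries share, and they were not treated as pairs. Alternatives were other scalings, filters and spread estimates, DESeq2 1.42.0, a fit on all 4 PVN groups, a replicate block, thinned counts and leaving out each library.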

Additional observations from a re-analysis of the deposited data

How the results depend on the processing

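The adjusted count of 2 miRNAs became 41 with every miRNA of at least 1 count in the fit, 39 when the robust spread estimate was also dropped (a setting chosen after seeing the data), 22 with DESeq2 and 0 to 12 when 1 library was left out. It was 2 or 3 with the other scalings, filters, subsets and thinned depth. The unadjusted count of 86 became 48 to 100 when 1 library was left out and 71 to 127 otherwise. Every one of the 86 that could be tested kept its sign in every alternative. Since the 86 were picked on these same counts, few signs could turn, and this is a description. With the replicate block the adjusted count was 29 and the unadjusted count 78. Same-numbered deviations from the group means correlated at -0.009, 0.150 and 0.037, and not every library correlated best with its own number, so the numbers were not read as pairs. The block ended the nominal calls of miR-223-3p and miR-206-3p. The interaction count of 0 ranged from 0 to 7 when 1 library was left out and was 0 otherwise, the replicate block included. List medians moved beyond the spread in 7 of 400 fits: with the GC correction, chosen after seeing the data, to -0.39 (red cell) and -0.29 (stress axis), with identical counts counted once to -0.54 (striated muscle), and with 1 library left out to -0.07 (ependymal, without NC library 1), -0.91 and 0.24 (epithelial, without HT + EA library 2 or NC library 2) and -0.34 (activity-regulated, without NC library 2). The GC correction was fitted only to the 471 tested miRNAs with a listed sequence, so its medians leave out list members without one. Loss of members and correction were not told apart, and the cause of the other shifts was not tested. With 3 libraries a group, 264 of the 525 intervals lay within 0.5 on either side of 0 on the log2 scale, and for the other intervals a difference of that size was not excluded.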
